A study of Mus musculus with 62 samples.

Results

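The mouse mitochondrial genome carries 37 genes, and all of them were present among the 55487 gene rows of a count table from quadriceps muscle. They were taken as every row placed on chromosome M: 13 genes for proteins, 2 for ribosomal RNAs (rRNAs) and 22 for transfer RNAs (tRNAs). Their starts, ends and strands were the same as in the GENCODE M21 annotation of GRCm38 for 37 of 37 rows. After a filter on low counts, 24 of them remained among the 14549 genes that were tested: 8 protein genes, both rRNAs and 14 tRNAs. The other 13 genes, 5 for proteins and 8 for tRNAs, had too few reads for a test.

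The mitochondrial genome is a small circle that is copied in many molecules per cell. Both of its strands are transcribed into long RNAs, which are then cut, mostly at the tRNAs, into separate messengers, rRNAs and tRNAs. Its protein genes encode subunits of complexes I, III, IV and V of oxidative phosphorylation, whose other subunits come from nuclear genes. Skeletal muscle depends heavily on these complexes during endurance exercise, and mitochondrial transcripts are among the most abundant poly-A RNAs of the tissue.

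The 62 libraries were made from poly-A RNA of 62 male mice, 1 library per mouse. Mice either had voluntary wheel running (30 runners) or did not (32 non-runners), and within each of these they received nicotinamide riboside (NR, a form of vitamin B3 that is a precursor of NAD), pterostilbene (PT, a plant stilbenoid), both or neither. The 4 non-running groups held 8 mice each, the running groups with PT and with both supplements 8 each, and the running groups with neither supplement and with NR alone 7 each. The labels used here give no genotype, strain, age or dose, and only the title of the study names a route for NR, the intravenous one. Mice were killed over 8 days, with 1 mouse per group and day, and on each day all runners shared 1 session (morning or noon) and all non-runners the other. Libraries held 5.64 to 30.8 M counts (median 16.1 M). The 9 markers of skeletal muscle fibres summed to 141358 ± 16899 CPM (counts per M of scaled library size; SD) for the 30 mice that ran and to 142786 ± 9784 CPM for the 32 that did not.

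Mitochondrial reads came almost wholly from 7 of the 13 protein genes. Over all libraries, mt-Co1 (the catalytic subunit of complex IV) took 33.3% of the reads on chromosome M, mt-Cytb (cytochrome b, of complex III) 18.3% and mt-Nd1, mt-Nd2, mt-Nd5, mt-Nd4 and mt-Nd6 (membrane subunits of complex I) 13.5%, 11.8%, 9.89%, 8.05% and 3.12%. Per library, the 13 protein genes made up a median of 98.3% of chromosome M counts, the rRNAs 1.53% and the tRNAs 0.141%. RNA was selected by its poly-A tail, so the low level of rRNA and tRNA here is not their level in the tissue.

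The other 6 protein genes were nearly without reads. In 62 libraries together, mt-Co2 and mt-Co3 (the other core subunits of complex IV) had 134 reads each, mt-Atp6 and mt-Atp8 (of complex V) 123 and 23, and mt-Nd3 and mt-Nd4l (of complex I) 330 and 28. The highest count of any of them in a library was 27, for mt-Nd3, whereas mt-Co1 was counted between 117585 and 1263365 times. These genes lie side by side, at chrM:7013-10173 (mm10), between mt-Co1 and mt-Nd4. Of the tRNA genes within that stretch, mt-Tk and mt-Tg had 0 reads in every library and mt-Tr had 14 in all. Just before it, next to mt-Co1, mt-Ts1 had 1 read and mt-Td 0.

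Nuclear pseudogenes repeat this stretch of the mitochondrial genome. A run of 7 unprocessed pseudogenes on the minus strand at chr1:24611535-24616197 (4663 bases) follows the same order as chrM:6390-11042 (4653 bases), with gaps between neighbours of the same length in 5 of 6 cases. The span on chromosome M holds 11 whole genes, 6 for proteins and 5 for tRNAs. The copies of mt-Co2 (Gm28661, 681 aligned bases), mt-Atp6 (Gm10925, 678), mt-Co3 (Gm28437, 783), mt-Nd4l (Gm10222, 294) and the first 876 bases of mt-Nd4 (Gm28439) were 100% identical to the mitochondrial gene. The copy of mt-Nd3 (Gm28438) differed at 1 of 345 bases and the copy of the last 483 bases of mt-Co1 (Gm29216) at 1 base. Sequences are from the GENCODE M21 transcripts (GRCm38), and positions count from 1 at the 5′ end of the mitochondrial gene.

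The first 60 bases of mt-Co2, at chrM:7013-7072 on the plus strand, and of its copy, at chr1:24615506-24615565 on the minus strand, are shown because no read within them can tell one from the other.
mt-Co2: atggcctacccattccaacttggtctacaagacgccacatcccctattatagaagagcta
Gm28661: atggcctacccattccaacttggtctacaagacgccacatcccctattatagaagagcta

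For mt-Nd3, at chrM:9459-9487, the substitution T3C against the copy at chr1:24613091-24613119 is the only one, and its base is in capitals.
mt-Nd3: atTaacctgtacactgttatcttcattaa
Gm28438: atCaacctgtacactgttatcttcattaa

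For mt-Co1, at chrM:6367-6419, the copy at chr1:24616159-24616197 aligned from base 1063 on, and the only substitution from there to the gene's end was A1066T, in capitals.
mt-Co1: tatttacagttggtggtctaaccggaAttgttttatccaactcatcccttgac
Gm29216: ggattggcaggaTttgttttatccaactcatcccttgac

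The share of each gene that a single 52-base read could not place was counted from all 52-base windows of its transcript. The libraries were read as pairs, and the windows do not take the second read of a pair into account. An exact match in an annotated nuclear transcript was found for 100% of the windows of mt-Co2, 99.9% for mt-Co3, 99.5% for mt-Atp6, 98.8% for mt-Nd4l and 98% for mt-Nd3. It was found for 62.2% of the windows of mt-Nd4, 50.1% of mt-Co1, 7.9% of mt-Nd2, 6.82% of mt-Nd5 and 0.914% of mt-Rnr2. No window of mt-Nd1, mt-Nd6, mt-Cytb, mt-Rnr1 or any tRNA gene had such a match. However, the tRNA genes mt-Ts1, mt-Td, mt-Tk, mt-Tg and mt-Tr lie inside the copied span. They fall wholly or almost wholly in gaps between the copies that hold no annotated gene, so this search could not find copies of them. No match was found for mt-Atp8 either, although it too had few reads. Most of its sequence lies where the copies leave a gap of 233 bases without an annotated gene, and its last 43 bases, too few for a window, align without a mismatch to Gm10925. No genome sequence was used here to fill these gaps. The 7 copies on chromosome 1 had more reads than the 6 protein genes and fewer than mt-Co1. They summed to 391 ± 120 CPM over all libraries (SD, n = 62), while the 6 protein genes summed to 0.684 ± 0.381 CPM. Among the 7, Gm29216 (mean 67.6 CPM) and Gm28439 (48.9 CPM) copy parts of mt-Co1 and mt-Nd4, which are not among these 6 genes. The mean of mt-Co1 was 37927 CPM. No source used here tells how the counting treated reads with several matches, and its part in the low counts was not tested. No RNA level is read from the counts of these 6 genes.

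**Figure D1:**
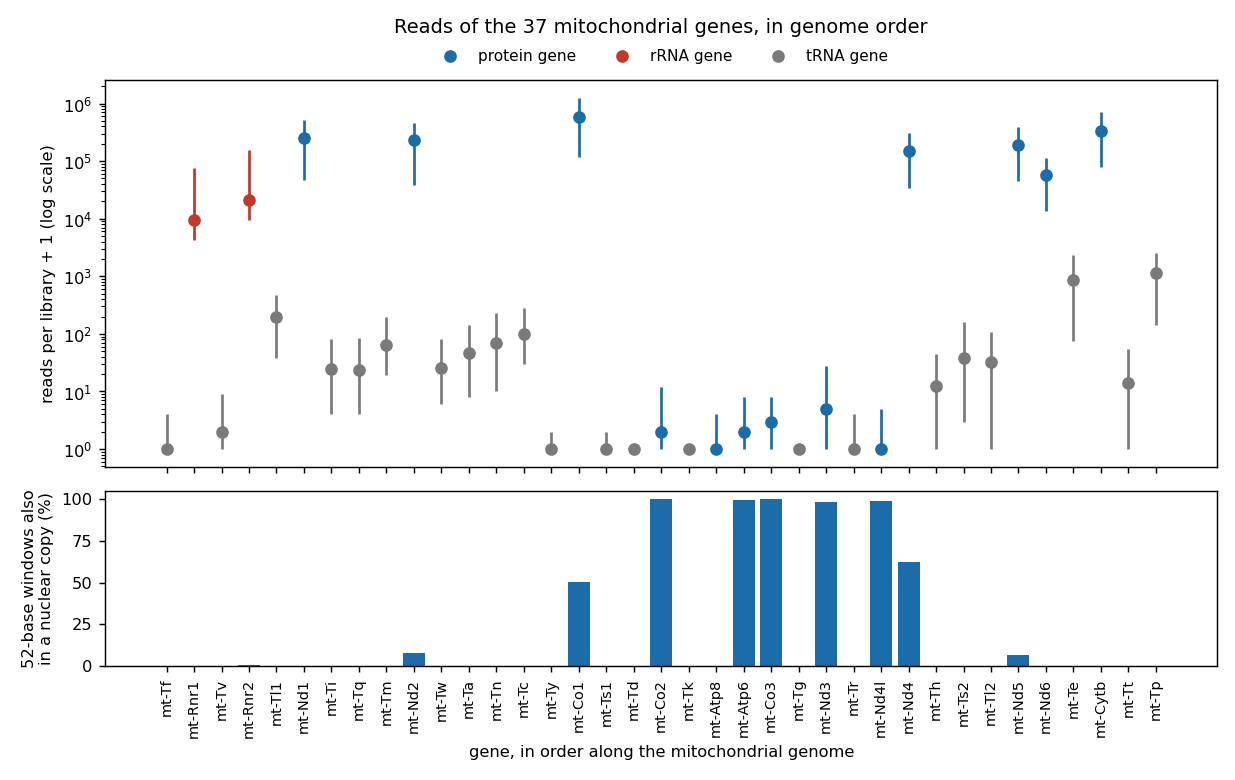
Upper panel: reads per library of each of the 37 genes in genome order, with the median as a point and the lowest to highest library as a line, on a log axis after adding 1 read. Lower panel: percent of each gene's 52-base windows with an exact match in a nuclear transcript. The genes from mt-Ts1 to mt-Nd4l lie at or near 0 reads, and the protein genes among them other than mt-Atp8 are nearly fully copied.

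The copies also bear on comparisons of level between genes. On the scale of CPM per kilobase of gene, the level of mt-Co1 was 24548, of mt-Cytb 18290, of mt-Nd1 16060 and of mt-Nd2 12821. On that scale mt-Nd6, mt-Nd4 and mt-Nd5 lay at 6837, 6671 and 6179. When CPM was divided by the number of windows without a nuclear match instead, the level of mt-Co1 was 50909 CPM per 1000 windows and that of mt-Nd4 18313. On the second scale mt-Cytb was at 19143 CPM per 1000 windows, mt-Nd1 at 16964, mt-Nd2 at 14641, mt-Nd6 at 7583 and mt-Nd5 at 6822. The place of mt-Nd4 in the order thus depends on the scale: per kilobase it lay below mt-Nd6, and per unshared window above mt-Nd1. The order of the other 6 genes was the same on both scales. The order is a description of these counts, and the second scale takes single reads, not read pairs.

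Among RNAs that are selected by a poly-A tail, the ends of the messengers are of interest because in some of them the tail completes the stop codon. In the reference annotation, the genes mt-Co3, mt-Nd4 and mt-Cytb end 1 base into their last codon, with a single T. The other 10 protein genes are annotated with a whole stop codon. For mt-Nd1 and mt-Nd2 the last 2 bases of that codon also belong to the next tRNA gene on the same strand, mt-Ti and mt-Tw. Where the messengers themselves end was not examined. The last 30 bases of 4 well-counted genes show both kinds, with the stop codon or its first base in capitals. They lie at chrM:3678-3707, chrM:6843-6872, chrM:11515-11544 and chrM:15259-15288, all on the plus strand.
mt-Nd1: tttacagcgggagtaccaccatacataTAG
mt-Co1: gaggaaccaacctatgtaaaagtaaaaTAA
mt-Nd4: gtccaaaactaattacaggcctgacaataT
mt-Cytb: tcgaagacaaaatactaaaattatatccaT

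The tRNA genes were counted at low and unequal levels. The light-strand tRNAs mt-Tp (for proline) and mt-Te (for glutamate) had 75399 and 55054 reads over all libraries, at 1046 and 712 CPM per kilobase. The next were mt-Tl1 (leucine) at 152 CPM per kilobase and mt-Tc (cysteine) at 95.7, and the other 10 tested tRNAs lay between 10.3 and 63.8. The 8 tRNA genes of the light strand had 147045 reads in all, most of them from mt-Tp and mt-Te, and the 14 of the heavy-strand transcript 27176. Whether the counting used the strand is not known here. Of the 8 tRNAs that were not tested, mt-Tv (valine) had 104 reads, mt-Tr (arginine) 14, mt-Tf (phenylalanine) 8, mt-Ty (tyrosine) 2, mt-Ts1 (a serine tRNA) 1, and mt-Td, mt-Tk and mt-Tg (aspartate, lysine, glycine) 0. The tRNA genes are 59 to 75 bases long, little more than a read of 52 bases, and short mature tRNAs are poorly recovered by such libraries. Of the tRNAs that were not tested, mt-Ts1, mt-Td, mt-Tk, mt-Tg and mt-Tr also lie in the span that is copied on chromosome 1. What made the counts of single tRNAs low was not tested. The 2 most counted tRNAs, at chrM:15356-15422 and chrM:14071-14139 on the minus strand, and the first gene of the genome, mt-Tf at chrM:1-68 on the plus strand, which was almost without reads, are shown with the anticodon in capitals.
mt-Tp: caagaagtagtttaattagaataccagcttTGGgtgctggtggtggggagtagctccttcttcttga
mt-Te: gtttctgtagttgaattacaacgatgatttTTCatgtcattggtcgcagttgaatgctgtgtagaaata
mt-Tf: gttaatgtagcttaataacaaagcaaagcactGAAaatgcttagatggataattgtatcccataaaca

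Runners had a larger part of their counts on chromosome M. In non-runners the share was 10.62 ± 1.06% (SD, n = 32), with a lowest value of 8.52%, a median of 10.47% and a highest of 12.51%. Among runners it was 12.29 ± 1.65% (SD, n = 30), from 10.15% through a median of 11.85% to 16.06%. The 2 sets overlapped, with 13 of 30 runners above every non-runner and 11 of 32 non-runners below every runner. Replicate 1 of the runners with NR alone, at 10.71%, drew 37.7% of its chromosome M counts from rRNA. Its protein genes took 6.66% of its counts, the lowest value of the 62 libraries. On protein genes alone, no non-runner therefore lay below every runner. Set against the non-runner of the same supplements and day, the share of counts on chromosome M was higher in 24 of 30 runners, by 1.63 percentage points on average. The mean of the runners was above that of the non-runners on 8 of 8 days, by 0.89 to 3.08 points. As a score over these genes, the share was not tested. In a bulk sample, more mitochondrial RNA per fibre and more of the cells or fibres rich in it cannot be told apart.

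By group, the share was 10.94 ± 1.37% in non-runners with neither supplement, 10.87 ± 1.02% with NR, 10.28 ± 0.86% with PT and 10.38 ± 0.96% with both (SD, n = 8 each). It was 12.13 ± 1.38% in runners with neither supplement and 11.91 ± 1.44% with NR (SD, n = 7 each), 12.34 ± 1.44% with PT and 12.73 ± 2.33% with both (SD, n = 8 each). Runners with both supplements had the widest spread, from 10.33 to 16.06%. Every arm had a higher mean in runners, by 1.19 points with neither supplement, 1.03 with NR, 2.06 with PT and 2.35 with both. All 8 runners with both supplements lay above their partner of the same day, against 4 of 7 with neither, 5 of 7 with NR and 7 of 8 with PT. Mice with NR had 11.46 ± 1.74% and mice without it 11.40 ± 1.49% (SD, n = 31 each). With PT the share was 11.43 ± 1.83% (SD, n = 32) and without it 11.43 ± 1.36% (SD, n = 30). Within pairs of the same session, mice with NR were higher in 14 of 30 and mice with PT in 13 of 30.

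**Figure D2:**
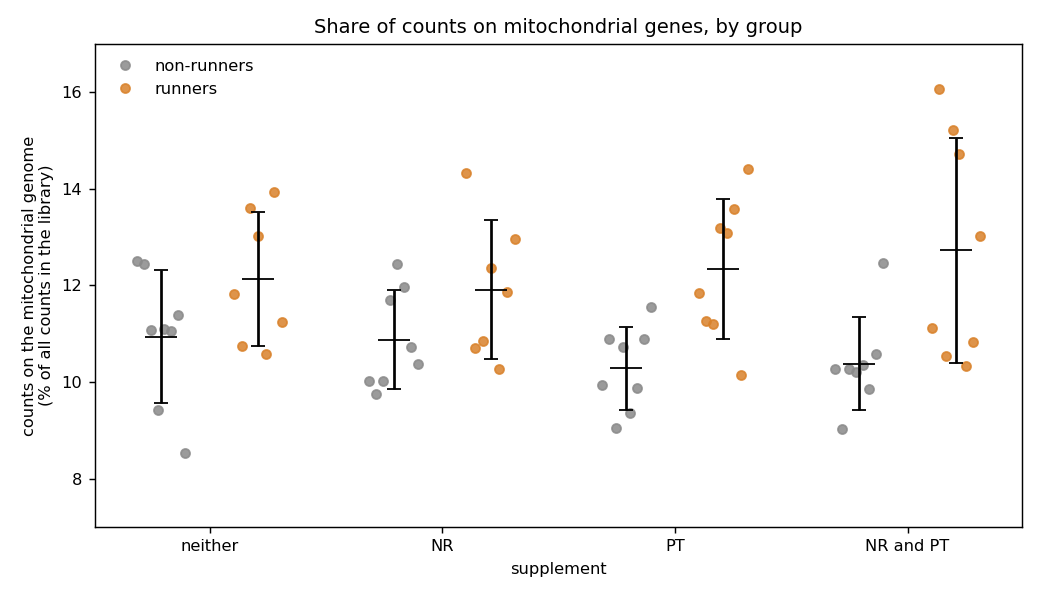
Percent of all counts that lie on the mitochondrial genome (vertical axis, from 7%) for each library, by supplement, with non-runners in grey and runners in orange. The bar and whiskers are the mean ± SD of the 7 or 8 mice of a group. In each of the 4 arms the mean of the runners is higher, and the points overlap.

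The best counted messengers were higher in runners. Levels are CPM scaled by TMM, a scaling of library sizes that is not led by a few abundant genes, and changes come from a fit with group, day and time of day. Of the 24 genes tested, 7 rose with running and none fell at an adjusted p below 0.05 (edgeR, quasi-likelihood F test, Benjamini-Hochberg over all genes), against 14% of all genes called in either direction and 8.41% called higher. These 7 were mt-Co1, mt-Cytb, mt-Nd4, mt-Nd1, mt-Nd5, mt-Nd6 and mt-Nd2, which are the 7 protein genes with more than a few reads. All 24 estimates lay above 0, with a median log2 change of 0.24, beside a median of 0.01 over all genes. All of these genes are scaled by the same library sizes, and genes of the same strand are cut from shared long RNAs. They are therefore not 24 independent observations.

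For complex IV, mt-Co1 had between 28220 and 40840 CPM in non-runners, with a median of 34243. Runners had between 30407 and 59981 CPM, with a median of 40852. The sets overlapped: 15 of 30 runners lay above every non-runner, and 6 of 32 non-runners below every runner. The mean rose from 34353 ± 3503 (SD, n = 32) to 41740 ± 6608 CPM (SD, n = 30), a log2 change of 0.28 ± 0.05 (SE; 1.21-fold; edgeR adjusted p = 9.52e-05). The level was higher in 24 of 30 pairs of the same arm and day, and in the mean of 8 of 8 days.

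For complex III, mt-Cytb had 15010 to 22644 CPM in non-runners (median 18831) and 18150 to 32073 CPM in runners (median 21676). Of the runners 12 lay above the highest non-runner, and of the non-runners 10 lay below the lowest runner. The log2 change was 0.23 ± 0.05 (SE; 1.17-fold; edgeR adjusted p = 0.00128), and the level was higher in 22 of 30 pairs and on 8 of 8 days.

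The 5 complex I genes also rose, with smaller estimates and wide overlap between runners and non-runners. Among them mt-Nd4 moved from 8561 ± 996 to 9868 ± 1464 CPM, a log2 change of 0.20 ± 0.05 (SE; edgeR adjusted p = 0.00398), and mt-Nd1 from 14475 ± 1443 to 16324 ± 2214 CPM, a log2 change of 0.17 ± 0.04 (SE; edgeR adjusted p = 0.00582). For mt-Nd5 the log2 change was 0.16 ± 0.05 (edgeR adjusted p = 0.0197), for mt-Nd2 0.17 ± 0.06 (edgeR adjusted p = 0.0398) and for mt-Nd6 0.15 ± 0.05 (edgeR adjusted p = 0.0306). Of 30 runners, 11 lay above every non-runner for mt-Nd1, 10 for mt-Nd4, 7 for mt-Nd2, 5 for mt-Nd5 and 4 for mt-Nd6. Means over pairs were above 0 on 8 of 8 days for each of these genes except mt-Nd2, which was higher on 7. mt-Nd6 is the only protein gene of the light strand, and its 3′ end overlaps that of mt-Nd5 by 14 bases on the opposite strand. Whether the counting used the strand is not known here.

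The remaining tested protein gene, mt-Nd3, passed the filter with a median of 4 reads per library and is 98% copied on chromosome 1. It ranged from 0 to 0.730 CPM in non-runners and from 0 to 1.13 CPM in runners, and its log2 change of 0.75 ± 0.36 (SE) was not called (edgeR adjusted p = 0.16). Since it passed the filter on so few reads, no level is read from it.

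**Figure D3:**
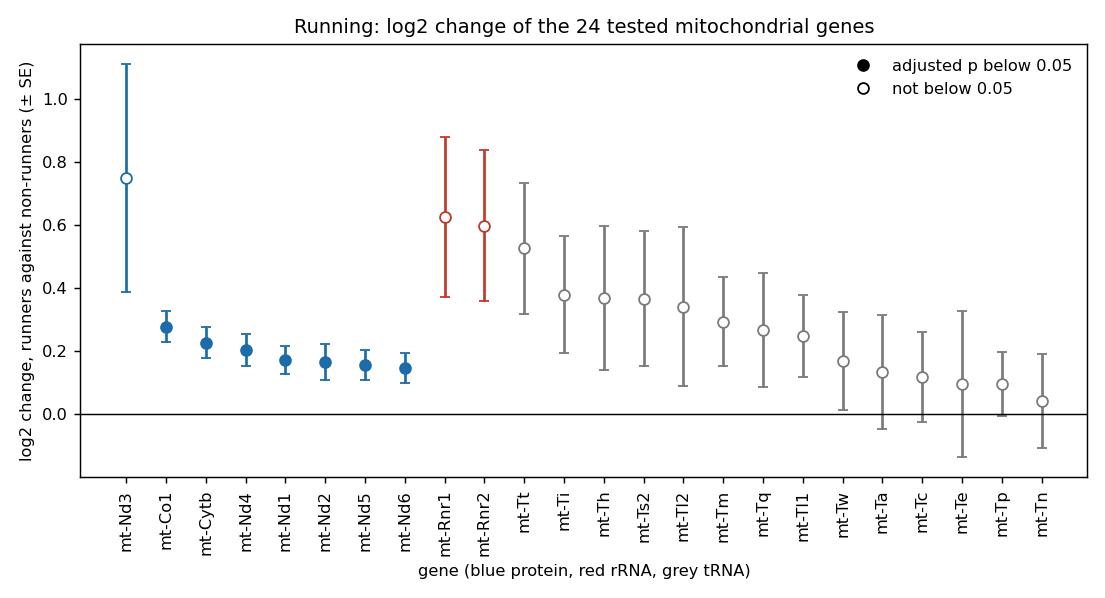
Log2 change of runners (n = 30) against non-runners (n = 32) for the 24 tested genes, with bars of 1 SE from the edgeR fit, protein genes in blue, rRNAs in red and tRNAs in grey. Filled points have an adjusted p below 0.05: they are 7 protein genes between 0.15 and 0.28, and the genes with larger estimates have wider errors.

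The number of calls depended on which libraries and settings were used. DESeq2 called the same 7 protein genes and both rRNAs (background 18.1% of the 13138 genes given an adjusted p). With RLE scaling 6 genes were called (14.7%), with scaling from nuclear genes alone 5 (15.2%), and without the low-count filter 4 (3.81%). Leaving out 1 day in turn gave 4 to 7 (7.05 to 16.1%), with 4 without day 1, 3, 4, 5 or 6. The 7 without day 2 were not the same genes: mt-Nd6 was no longer called (edgeR adjusted p = 0.0503), and the tRNA mt-Tt was. Cohort 1 alone (days 1 to 4) gave 3, mt-Co1, mt-Nd4 and mt-Cytb (4.31%). In cohort 2 alone (days 5 to 8) none was called (edgeR; mt-Co1 had the smallest adjusted p, 0.0862), at a background of 0.42% of genes called. Estimates for the 7 genes stayed above 0 in each of the 19 alternatives, and mt-Co1 and mt-Cytb were called in 18 of them. When counts were summed per session, so that mice killed together counted once, 7 chromosome M genes were called (background 7.52%) and mt-Co1 changed by 0.28 ± 0.03 (SE; edgeR adjusted p = 0.000318).

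Among the messengers, mt-Co1 took a larger part in most runners. As a percent of the 7 well-counted protein genes together, mt-Co1 was 33.27 ± 1.21% in non-runners (SD, n = 32) and 34.66 ± 1.51% in runners (SD, n = 30), higher in 25 of 30 pairs and on 8 of 8 days. On the same scale mt-Nd1 was 14.02 ± 0.44% in non-runners and 13.59 ± 0.46% in runners, higher in 5 of 30 pairs and lower on 8 of 8 days. Shares of mt-Nd2, mt-Nd5 and mt-Nd6 were lower in runners on 7 of 8 days, mt-Nd4 on 5 of 8. Cytochrome b kept nearly its share, at 18.70 ± 0.55% and 18.79 ± 0.67%. Shares of a sum are bound to each other, so a higher share of mt-Co1 lowers the others, and these shares were not tested.

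The rRNAs were higher in the median runner, and a few libraries set their means. mt-Rnr1 (12S) had a median of 462 CPM without running and 609 CPM with it, and mt-Rnr2 (16S) 1075 and 1368 CPM. A single library, replicate 1 of the runners with NR alone, had 19258 CPM of mt-Rnr1 and 39697 CPM of mt-Rnr2, while its mt-Co1 was 30407 CPM. It had the lowest total, 5.64 M counts, and a RIN of 9.3. In the same library the nuclear row Lars2 (the mitochondrial leucyl-tRNA synthetase, whose row also collects reads of cytosolic rRNA) stood at 117686 CPM, and 8 rRNA-like nuclear rows that were chosen after their values were seen (Gm26917, Lars2, CT010467.1, Gm24187, Gm24270, Gm15564, Gm23935 and Mir6236) summed to 364917 CPM, against a median of 557 CPM over all libraries. In all, 8 libraries, 4 of runners and 4 of non-runners, lay above 5 times that median (2784 CPM).

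With all libraries, the log2 estimates for running were 0.63 ± 0.25 for mt-Rnr1 and 0.60 ± 0.24 for mt-Rnr2 (SE; edgeR adjusted p = 0.0915 and 0.0858), which were not called. In a fit without day and time both were called, at 0.79 and 0.76 (edgeR adjusted p = 0.0224 and 0.0222; background 13.9%). Without the 1 library, with 7 chromosome M genes called at a background of 16.3%, the changes were 0.21 ± 0.15 and 0.19 ± 0.13 (edgeR adjusted p = 0.351 and 0.346). Without all 8 libraries they were 0.31 ± 0.08 and 0.28 ± 0.08 (edgeR adjusted p = 0.00718 and 0.0203), and both were called (background 12.1%). In that fit mt-Co1 (0.28 ± 0.06, edgeR adjusted p = 0.000924) and mt-Cytb (0.21 ± 0.06, edgeR adjusted p = 0.0155) stayed called, and the 5 complex I genes did not, at edgeR adjusted p-values from 0.0528 to 0.289. The level of mt-Rnr2 was then 1332 ± 296 CPM for 26 runners against 1082 ± 187 CPM for 28 non-runners (SD). These settings were chosen after the data were examined. Per 100 reads of the 7 protein genes, the rRNAs had a median of 1.65 reads in runners and 1.51 in non-runners, with a highest value of 60.6 in that 1 library. The ratio of mt-Rnr2 to mt-Rnr1 reads stayed between 1.74 and 2.67 in all 62 libraries.

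**Figure D4:**
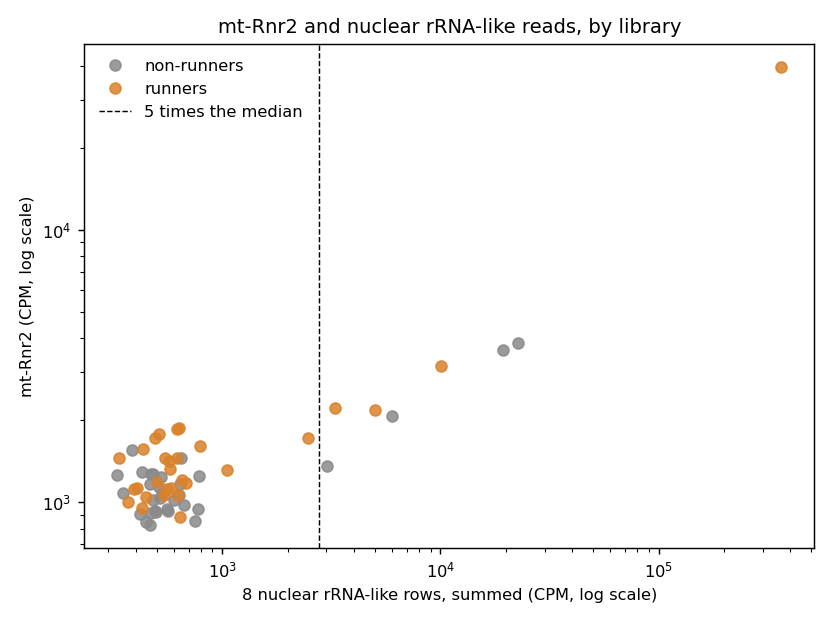
mt-Rnr2 (vertical axis, CPM) against the sum of 8 rRNA-like nuclear rows (horizontal axis, CPM) in each library, both on log axes, with runners in orange and non-runners in grey. The 8 libraries right of the dashed line (2784 CPM) lie above 5 times the median, and 1 runner stands apart at 39697 CPM.

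No tRNA was called for running in 62 libraries, although the 14 estimates lay above 0, from 0.04 to 0.53. mt-Tt (threonine) came nearest, at 0.53 ± 0.21 (SE; edgeR adjusted p = 0.08), with 23 of 30 pairs higher. Of the 14 tRNAs, 3 had an unadjusted p below 0.05. The 14% of all genes called for running lie below that threshold too, and the whole share below it is not given here. The 8 tested tRNAs of the heavy-strand transcript had a median log2 change of 0.35 (0.17 to 0.53) and the 6 of the light strand 0.11 (0.04 to 0.27). It is not known whether the counting used the strand. Without the 8 libraries rich in rRNA-like reads, mt-Te, mt-Tn and mt-Tc lay below 0, at -0.17, -0.09 and -0.06. The other tested tRNAs then stayed above 0, with mt-Ti at 0.19, mt-Ts2 at 0.14 and mt-Tq at 0.04. The most counted ones, mt-Tp and mt-Te, both had estimates of 0.10, with SE 0.10 and 0.23. Levels of mt-Te differed widely within groups, from 7.03 to 89.2 CPM in non-runners and from 9.49 to 102 CPM in runners. By DESeq2 none of the tRNAs was called, whereas without day 2 mt-Tt was, at 0.68 (edgeR adjusted p = 0.0126).

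NR and PT did not change any gene of chromosome M at the threshold. For NR, 0 of 24 were called by edgeR, at a background of 0.0206% of genes, and by DESeq2, at 0.0275%. The protein genes lay between -0.02 and 0.07 on the log2 scale, with mt-Co1 at -0.02 ± 0.05 and mt-Nd6 at 0.07 ± 0.05 (SE). All 14 tRNAs were above 0 with NR, between 0.09 and 0.40. For 2 of them, mt-Tq (glutamine, 0.40 ± 0.18) and mt-Ti (isoleucine, 0.38 ± 0.19), the unadjusted p was below 0.05, with edgeR adjusted p-values of 0.808 and 0.867. The share of all genes below that unadjusted threshold for NR is not given here. For PT, 0 of 24 were called by edgeR and by DESeq2, at a background of 0% of genes, and none had an unadjusted p below 0.05. The 7 well-counted protein genes lay between -0.05 and 0.01 for PT, with mt-Co1 at 0.004 ± 0.049 (SE). The 2 rRNAs had larger estimates, 0.38 and 0.47 for NR and -0.45 and -0.39 for PT, none with an unadjusted p below 0.05. These rRNA estimates include replicate 1 of the runners with NR alone, which had 39697 CPM of mt-Rnr2.

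Within the supplement arms the running estimates were positive for all 7 genes, and few passed the test. Running with both supplements changed mt-Co1 by 0.39 ± 0.10 (SE; edgeR adjusted p = 0.0257), the only one of 24 genes called there, at a background of 1.7% of genes. The call was lost without day 1, 2, 3, 4 or 5. Its group levels were 33325 ± 2591 CPM in non-runners and 43941 ± 9605 CPM in runners with both supplements (SD, n = 8 each), and the runners ranged from 31697 to 59981 CPM. With PT alone the estimate for mt-Co1 was 0.30 ± 0.10 (SE), with neither supplement 0.23 ± 0.10 and with NR alone 0.19 ± 0.10, and no gene was called in these arms, at backgrounds of 0.00687%, 0% and 0.447%. At an unadjusted p below 0.05 there were 7 of 8 protein genes with PT alone, 1 with neither, 0 with NR alone and 7 with both. The share of all genes below that unadjusted threshold is not given here, so these counts do not compare the arms. For the running-by-PT term, 0 of 8 protein genes had an unadjusted p below 0.05. By DESeq2, mt-Rnr1 and mt-Rnr2 were called in the arm with NR alone, which holds the library richest in rRNA. The background there was 1.2% of the 13138 genes given an adjusted p.

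The difference between arms was itself tested and did not pass. The running-by-PT term was above 0 for all 8 protein genes, from 0.13 to 0.27, and called for none, with mt-Co1 at 0.13 ± 0.10 (SE; edgeR adjusted p = 0.999884). No chromosome M gene was called for running by NR, NR by PT or the 3-way term by edgeR or DESeq2. The background was 0% for each of the 4 terms by edgeR, and by DESeq2 0.0412% for running by PT and 0% for the others. At an unadjusted p below 0.05, mt-Rnr1 alone had a running-by-PT term, -1.04 ± 0.51 (SE). That term includes the runners with NR alone, where 1 library had 19258 CPM of mt-Rnr1 and the others at most 843 CPM. NR and PT within each of the 4 backgrounds likewise gave 0 calls in 8 comparisons (backgrounds 0% or 0.00687%), and the direct contrast of all 3 interventions against none gave 0 by edgeR at a background of 0.57%, with mt-Co1 at 0.30 ± 0.10 (SE; edgeR adjusted p = 0.125). DESeq2 called mt-Co1 there (adjusted p = 0.0429) at a background of 8.62%, which is 306 of only 3548 genes given an adjusted p. By edgeR 83 of 14549 genes were called, so the 2 percentages do not compare.

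**Figure D5:**
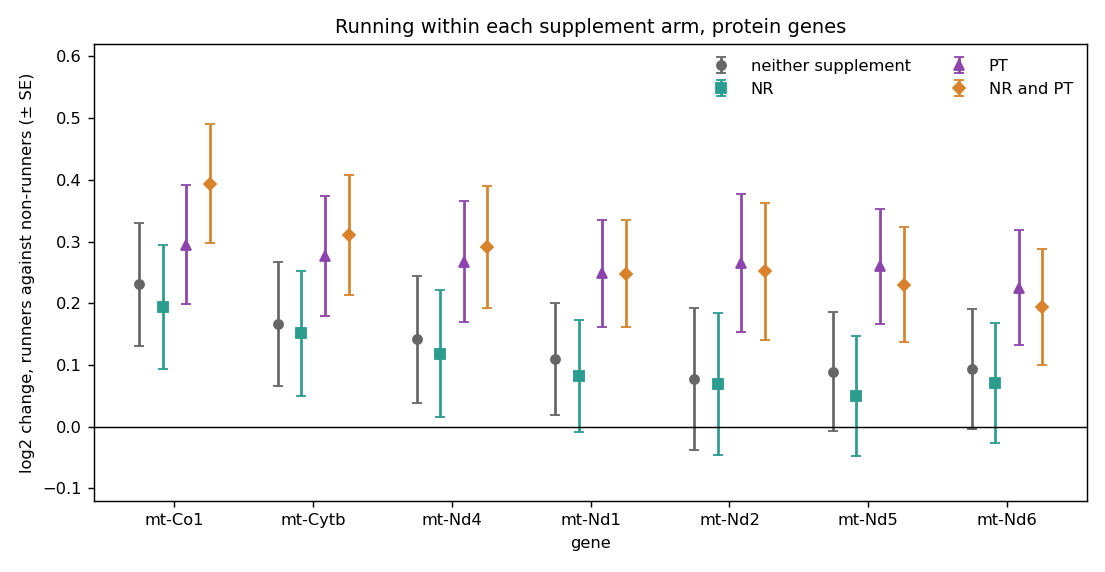
Log2 change of runners against non-runners (vertical axis, ± SE from the edgeR fit) for the 7 well-counted protein genes (horizontal axis) within each of 4 supplement arms. Points of the arms with PT lie above those without it for every gene, and the error bars of the arms overlap.

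Neither time of day nor cohort gave a call. Noon against morning called 0 of 24 (background 0%), with 7 protein genes between -0.03 and 0.0046. Cohort 2 against cohort 1 also called 0 of 24 (background 0.131%), with the 7 protein genes between -0.02 and 0.03. None had an unadjusted p below 0.05 in either comparison.

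Nuclear genes that serve the same complexes and the expression of the mitochondrial genome are given beside these changes. Nuclear subunits rose with running in 19 of 36 cases for complex I, 4 of 4 for complex II, 6 of 9 for complex III, 9 of 15 for complex IV and 13 of 17 for complex V, and none of them fell (edgeR, adjusted over all genes), beside 8.41% of all genes called higher. Median log2 changes of these lists were 0.13, 0.13, 0.19, 0.16 and 0.14. Examples were Ndufv1 (0.24 ± 0.05, a subunit of complex I), Uqcrc1 (0.22 ± 0.04, complex III), Cox7a1 (0.34 ± 0.06, the muscle form of a complex IV subunit) and Atp5b (0.20 ± 0.04, the catalytic subunit of complex V). Complex II, which has no mitochondrially encoded subunit, had Sdhb at 0.22 ± 0.06.

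Genes of the machinery of mitochondrial gene expression are set beside the same background, 8.41% of all genes called higher and 14% in either direction. Of the genes for transcription of mitochondrial DNA, 2 of 10 tested rose: Mterf2 (0.22 ± 0.06), of the termination factor family, and Mrpl12 (0.15 ± 0.04), a ribosomal protein that also binds the mitochondrial RNA polymerase. For replication and maintenance of the genome none of 17 rose or fell (edgeR). Of these, 3 had an unadjusted p below 0.05, and the share of all genes below that threshold is not given here. Of the genes for RNA processing, stability and decay 3 of 23 rose: Ptcd3 (0.13 ± 0.04), Tbrg4 (0.13 ± 0.04) and Lrpprc (0.10 ± 0.03), which stabilises mitochondrial messengers. For modification of rRNA and tRNA 1 of 23 rose, Nsun4 (0.17 ± 0.03), a methyltransferase of mitochondrial rRNA. Of the mitochondrial aminoacyl-tRNA synthetases 6 of 22 rose, among them Tars2, Fars2 and Vars2 by 0.13 to 0.17. Medians of these 5 lists were between 0.02 and 0.07 on the log2 scale. Beside them stand 0.24 for all 24 mitochondrial genes tested, tRNAs and rRNAs included, and 0.19 for the 8 protein genes among them.

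Markers of other cell types are given by their calls for running, beside 8.41% of all genes called higher and 14% in either direction. All 10 endothelial markers rose, and their sum was 457 ± 68 CPM in runners (345 to 600) and 384 ± 28 CPM in non-runners (330 to 435). Fibroblast markers rose in 2 of 7 cases, from a sum of 1201 ± 297 to 1404 ± 278 CPM, and macrophage and leukocyte markers in 2 of the 7 tested, from 127 ± 32 to 149 ± 35 CPM. Smooth muscle and pericyte markers rose in 3 of 8 and fell in 1, with sums of 404 ± 40 and 453 ± 61 CPM. Adipocyte markers rose in 1 of 7 (306 ± 111 to 343 ± 120 CPM), erythrocyte markers in 0 of 5, and 1 fell in each of the lists for nerve, satellite cells and heart muscle. No marker was at 0 in all libraries, and 3 of the 6 heart markers were at 0 in most. The part of these cells in the mitochondrial counts was not tested. RIN was 9.54 ± 0.36 in runners and 9.61 ± 0.28 in non-runners, and totals were 17.2 ± 6.1 and 17.5 ± 5.8 M counts (SD, n = 30 and 32).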

How the data were processed

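The authors deposited raw counts of reads per gene, made from paired-end reads with STAR 2.7.3a and featureCounts 2.0.0 on mm10, per the submitters' processing notes. No source used here names the strand setting, the treatment of reads with several matches or the annotation release. Each value column matched 1 sample title.

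edgeR's filterByExpr (count of at least 10, total of at least 15) kept 14549 of 55487 genes, which were tested with edgeR 4.0.16 (R 4.3.3): TMM, robust quasi-likelihood F test, 8 groups, 8 days and time of day as terms, 46 residual degrees of freedom, Benjamini-Hochberg over all genes tested, two-sided. A call is an adjusted p below 0.05. DESeq2 1.42.0 and other settings were alternatives. Every chromosome M gene is named, and at most 4 members of each other list, those with the smallest p, except 1 that is not reported here. The pipeline was tested on simulated data. Mice are separate animals. Reads carry no molecular identifiers. Members and lists were chosen with earlier results of these data known. Copies were found with 52-base windows and alignments among GENCODE M21 transcripts.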

Additional observations from a re-analysis of the deposited data

Results flagged for a closer look

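In each group of 7 or 8 mice, the highest and lowest library were compared with the rest (Dixon's ratio of gap to range) for the share of counts on chromosome M and the 24 tested genes. This looked at 200 sets of samples and marked 16 of them, and chance alone marks about 1 in 20. No interaction term passed the test.

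The rRNAs account for 6 of the 16, in 3 libraries. Replicate 1 of the runners with NR alone had 19258 CPM of mt-Rnr1 and 39697 CPM of mt-Rnr2, against at most 843 and 1779 CPM in the other 6 mice. Replicate 2 of the non-runners with both supplements had 2099 and 3830 CPM, and replicate 7 of the non-runners with neither had 1734 and 3632 CPM. All 3 libraries are among the 8 rich in rRNA-like nuclear reads.

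Replicate 5 of the non-runners with both supplements was marked 3 times, with 12.46% of counts on chromosome M (others 9.03 to 10.57%), 16814 CPM of mt-Nd1 and 10323 CPM of mt-Nd4. Replicate 6 of the runners with neither supplement had 52363 CPM of mt-Co1, above 36585 to 42981 CPM in the other 6.

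The other 6 concern tRNAs: mt-Tl1 at 22.2 CPM in runners with both supplements, mt-Tm at 7.50 CPM in runners with neither, mt-Ta at 7.75 CPM and mt-Tt at 2.25 CPM in runners with PT, mt-Ts2 at 5.83 CPM in non-runners with neither, and mt-Tt at 1.70 CPM in non-runners with NR.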

How the results depend on the processing

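Genes of chromosome M called for running numbered 7. They numbered 6 with RLE, 5 with scaling from nuclear genes, 4 without the low-count filter, 9 without day and time (both rRNAs added), 3 in cohort 1 alone, 0 in cohort 2 alone and 4 without the 8 libraries rich in rRNA-like reads (chosen after the data were examined). Leaving out each day gave 4 to 7, with 4 without days 1, 3, 4, 5 or 6. The replicate block, with the title's number in place of day, also gave 7 and changed no call of these genes. Title numbers equal the day in 18 of 62 mice, and libraries with the same number did not pair (mean correlation of deviations 0.015, from -0.44 to 0.44). For running with both supplements, the 1 call became 0 without the filter, in either cohort alone and without the 8 libraries, and leaving out a day gave 0 to 1. Running with NR alone gave 0 calls, but 2 without day and time and 2 by DESeq2, both rRNAs. All 3 interventions against none gave 0, and 1 by DESeq2. No call was made for NR, PT or an interaction in any setting run. Over all genes, 1223 rose and 812 fell with running, and 1050 and 1158 with scaling from nuclear genes. The running difference in share of counts stayed between 1.48 and 1.82 points. Of 453 values for single genes under running, 407 kept their side of the threshold, 39 lost and 7 gained a call, and no value over 1 SE from 0 changed sign. Coding and deposited lengths do not differ for these genes, so levels per length had no alternative. The genes copied in the nucleus and the tRNAs are limited by their few reads.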
